A study of Mus musculus with 17 samples.

Results

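AP-1 and the immediate early transcription factors were followed as 10 genes, Fos, Fosb, Fosl2, Jun, Junb, Jund, Batf, Ier2, Ier5 and Nr4a1, chosen by name from the 48709 genes of a count table of mouse CD8+ T cells. AP-1 is a family of DNA-binding dimers built from Jun proteins with each other or with Fos or Batf proteins, joined through a leucine zipper. Immediate early genes are transcribed soon after a stimulus without new protein being made first, and their transcription is driven by kinase cascades that act on factors already present, such as SRF and CREB. In T cells, signals from the antigen receptor induce most of these genes, and Jun, Fos and Batf dimers bind beside NFAT and IRF factors at cytokine and effector genes.

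Bulk RNA sequencing counts were available for 17 libraries of CD8+ T cells in 4 groups, which were 4 from APP-PS1 brain, 3 from APP-PS1 blood, 5 from wild type (WT) brain and 5 from WT blood. APP-PS1 mice carry a chimeric mouse and human amyloid precursor protein transgene with the Swedish mutation and a human presenilin 1 dE9 transgene, each expressed in neurons of the central nervous system from the prion protein promoter, and they serve as an amyloid model of Alzheimer's disease. The study asked how CD8+ T cells of brain and blood differ, and whether they differ between the transgenic strain and WT mice. Males gave 3 of the 4 APP-PS1 brain libraries and 2 of the 3 from APP-PS1 blood, females gave the remaining 1 of each, and all WT libraries were female, so strain and sex cannot be told apart in most of the comparison between strains. Ages of the groups were not given in the sources used here, although the series describes the animals as aged. Brains were minced, homogenised and freed of myelin on Percoll, whereas blood was treated with a red cell lysis buffer, so tissue and preparation cannot be told apart. Mice were bred free of specific pathogens and moved to ordinary housing shortly before use. The design lists 7 mice of the APP-PS1 strain and 10 WT animals, and nothing in the labels links a brain library with a blood library. P-values thus measure only the spread among these libraries, which may be technical. In bulk samples, fewer cells of a type and less RNA per cell cannot be told apart.

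Total counts per library ranged from 27646 to 214670, from 27646 to 127707 in APP-PS1 brain, from 39055 to 46336 in APP-PS1 blood, from 51161 to 169903 in WT brain and from 62604 to 214670 in WT blood. Summed levels of 8 CD8 T cell markers ranged from 4891 to 9069 CPM (counts scaled to a common library total of 1e+06) over all libraries, while Cd4 and Foxp3 were at 0 everywhere. Markers of B cells summed to 53.3 to 574 CPM in APP-PS1 brain, 146 to 302 CPM in APP-PS1 blood, 40.8 to 97.7 CPM in WT brain and 108 to 419 CPM in WT blood. Of this list Ms4a1 was at 0 everywhere, while the immunoglobulin chain gene Igkc had 57 counts in APP-PS1 brain, 2 in APP-PS1 blood, 26 in WT brain and 132 in WT blood. Igkc was called lower in WT brain than in WT blood (adjusted p = 0.0307, edgeR), a call lost without replicate 1, 2 or 4 of WT blood, without replicate 1, 4 or 5 of WT brain (up to 0.116) and with limma voom. Igkc averaged 49.4 ± 21.8 CPM in WT brain and 206 ± 83.7 CPM in WT blood (SD, n = 5 each). Of these 2 means only that of WT blood exceeded the low count filter of about 117 CPM described below. The direction in WT mice is therefore not independent of that filter. Igkc was also the 1 gene called for the difference between strains in the tissue change (adjusted p = 0.0104, edgeR). That call was lost without replicate 1 of APP-PS1 blood or replicate 2 of APP-PS1 brain (up to 0.656), and in 4 of the 8 other settings that gave a value (up to 0.998). The part of B cell transcripts in the results was not tested. Of 10 microglia markers, P2ry12, Tmem119, C1qa, Trem2 and Sall1 were at 0 in every library, and the list summed to between 0 and 142 CPM in APP-PS1 brain, 0 and 97.3 CPM in APP-PS1 blood, 0 and 95.3 CPM in WT brain, and 9.82 and 111 CPM in WT blood. Red cell markers differed between tissues, with summed levels of 36.2 to 368 CPM in APP-PS1 brain, 2970 to 8071 CPM in APP-PS1 blood, 156 to 873 CPM in WT brain and 2152 to 9967 CPM in WT blood. Of the 5 red cell genes Alas2 was at 0 throughout, and the part of these transcripts in the results was not tested. Replicate 1 of APP-PS1 brain and replicate 1 of APP-PS1 blood had the lowest mean correlations with all other libraries over the tested genes (r = 0.640 and 0.670).

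Only 4 of the 10 genes, Ier2, Junb, Jund and Jun, passed the filter on low counts (about 117 CPM in at least 3 libraries) that left 2366 genes for the tests. The other 6, Fos, Fosb, Fosl2, Batf, Ier5 and Nr4a1, had at most 27 counts in any group except Batf in WT blood, which had 37. At this depth most of the family was thus represented by a few reads per library, and a fold change could be followed with any precision for Ier2, Junb and Jund.

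Promoters were set beside these levels to show the sequence upstream of a well detected and a barely detected member. RefSeq annotation on GRCm38.p6 supplied the 250 bases before the start of 9 of the 10 genes, all but Ier2. Both strands were searched for the core of the cyclic AMP response element, TGACG, which CREB and ATF proteins bind, for the full element TGACGTCA, for the AP-1 site TGANTCA and for the CArG box that SRF binds. The core, which is contained in the full element, was found in 5 of the 9 windows, those of Fos, Fosb, Junb, Batf and Nr4a1, and in 17.8% of 32851 windows of all RefSeq genes. None of the 9 windows held the full element, the AP-1 site or the CArG box, which were present in 1.55%, 6.75% and 1.47% of all windows. Sequence further upstream and variants of these motifs were not searched, so the genes may hold such elements elsewhere. The window of Jund ends at chr8:70697738, well before the gene start of 70698949 given below, as its RefSeq start lies further upstream. Those of Fosl2 (chr5:32136222-32136471) and Nr4a1 (chr15:101266596-101266845) lie inside the GENCODE genes, which start at 32135801 and 101254269. The windows of Fosb and Batf reach in part into the GENCODE gene. The 9 windows thus differ in their position relative to that annotation. The windows of Junb (chr8:84978749-84978998, minus strand) and Fos (chr12:85473640-85473889, plus strand) follow, 5′ to 3′ in the direction of transcription, with the TGACG core in capitals.
Junb: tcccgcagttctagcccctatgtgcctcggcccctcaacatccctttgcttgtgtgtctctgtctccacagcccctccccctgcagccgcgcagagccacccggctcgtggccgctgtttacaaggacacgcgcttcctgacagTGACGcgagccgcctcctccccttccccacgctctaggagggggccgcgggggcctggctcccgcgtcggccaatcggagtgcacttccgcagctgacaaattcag
Fos: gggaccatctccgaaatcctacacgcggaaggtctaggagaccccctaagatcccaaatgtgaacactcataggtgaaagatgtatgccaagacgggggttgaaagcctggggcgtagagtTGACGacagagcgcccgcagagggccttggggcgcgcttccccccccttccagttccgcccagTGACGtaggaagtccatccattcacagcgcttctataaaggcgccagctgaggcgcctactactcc
The single core in Junb lay 106 to 102 bases before the start, and the 2 cores in Fos lay 129 to 125 and 66 to 62 bases before it. The window of Nr4a1 held 4 cores and those of Fosb and Batf held 1 each.

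Ier2, an intronless early response gene whose product acts in the nucleus, gave the clearest difference between tissues. The gene lies at chr8:84661331-84662852 on the minus strand of GRCm38. In APP-PS1 brain the replicates held 181, 222, 71.1 and 180.1 CPM, against 768, 712 and 754 CPM in APP-PS1 blood. All 4 brain libraries were therefore below all 3 blood libraries, which lay close together. In WT brain the values were 95.3, 124, 313, 228 and 146 CPM, against 279, 214, 390.2, 335 and 432 CPM in WT blood. Here replicates 3 and 4 of brain overlapped with the lower blood libraries. Group means were 164 ± 64.8 CPM in APP-PS1 brain (SD, n = 4), 745 ± 29.1 CPM in APP-PS1 blood (SD, n = 3), 181 ± 88.6 CPM in WT brain (SD, n = 5) and 330.2 ± 86.9 CPM in WT blood (SD, n = 5). The 3 lower groups were thus the 2 brain groups, which did not differ beyond their spread, and WT blood, with APP-PS1 blood above all of them.

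Ier2 fell by 2.15 in log2 units in APP-PS1 brain relative to APP-PS1 blood (SE 0.41, adjusted p = 0.000911, edgeR quasi-likelihood test with Benjamini-Hochberg adjustment over 2366 genes). It was 1 of the 4 tested members called in that comparison, where 0.549% of all tested genes were called and 0.338% were called lower. The call was kept when any single library was left out, with adjusted p between 0.000494 and 0.0110, and without both libraries that stood apart (log2 fold change -2.16, adjusted p = 0.00869). With female libraries alone, 1 per APP-PS1 group, the log2 fold change was -1.96 and the adjusted p = 0.485. In WT brain the log2 fold change relative to WT blood was -0.98 (SE 0.33, adjusted p = 0.216), which did not pass. The 2 changes differed by -1.18 on the log2 scale, APP-PS1 minus WT (SE 0.52, unadjusted p = 0.0287, adjusted p = 0.942, edgeR), so a difference between strains in the tissue change was not established. Averaged over both strains, Ier2 fell by 1.56 in log2 units in brain (SE 0.26, adjusted p = 3.885e-05, edgeR). That contrast called 2.62% of all tested genes, 1.27% higher and 1.35% lower, and Ier2 ranked 9 of 2366 by p.

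**Figure D1:**
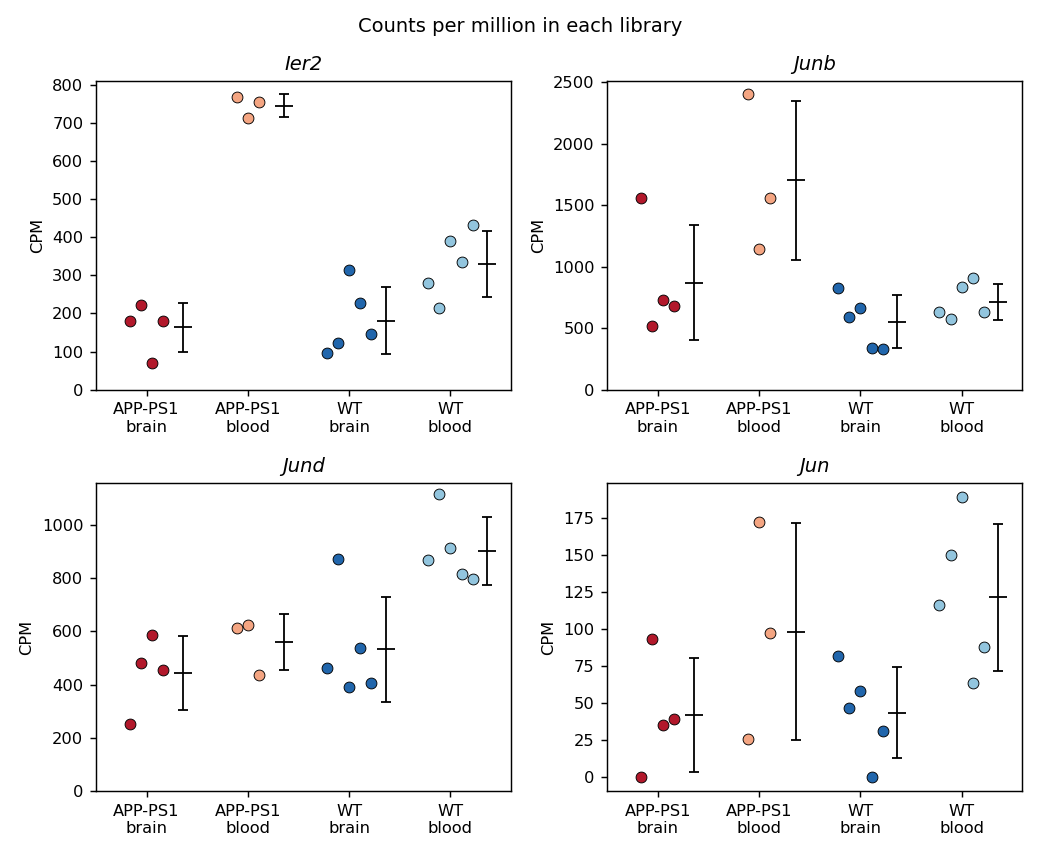
CPM of Ier2, Junb, Jund and Jun in each of the 17 libraries (y axis), by group (x axis). Points are libraries and the black mark with bars is the mean ± SD. Ier2 in APP-PS1 blood lies between 712 and 768 CPM, above every library of the other 3 groups.

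Junb, a Jun family subunit that pairs with Fos and Batf proteins in activated T cells, had the highest level per exon length of the 10 in both APP-PS1 groups. The gene lies at chr8:84974484-84978718 on the minus strand. APP-PS1 brain held 1555, 515, 729 and 681 CPM, against 2407, 1144 and 1557 CPM in APP-PS1 blood. Only replicate 1 of APP-PS1 brain reached into the range of APP-PS1 blood. WT brain held 830.2, 594, 665, 341 and 334 CPM, against 634, 577, 836, 910.5 and 629 CPM in WT blood, and these ranges overlapped broadly. The log2 fold change of brain relative to blood was -1.05 in APP-PS1 mice (SE 0.33, adjusted p = 0.123) and -0.45 in WT mice (SE 0.27, adjusted p = 0.759, edgeR), neither of which passed. Without replicate 1 of APP-PS1 brain it was -1.36 in APP-PS1 mice with an adjusted p = 0.0345, and without both libraries that stood apart it was -1.09 with an adjusted p = 0.224.

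Averaged over both strains, Junb fell by 0.75 in log2 units in brain (SE 0.21, adjusted p = 0.0355, edgeR). With Ier2 it made 2 called members of the 4 tested, both lower, where 1.35% of tested genes were called lower. The call on Junb was close to the threshold. It was lost in 10 of the 17 fits that left out 1 library, with adjusted p up to 0.137 when replicate 1 of APP-PS1 blood was left out. The other 9 such libraries were replicate 3 of APP-PS1 blood, replicates 2, 3 and 4 of APP-PS1 brain, replicates 3 and 4 of WT blood and replicates 2, 4 and 5 of WT brain.

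Jund, the Jun subunit usually present without stimulation, was led by WT blood. The gene is a single exon at chr8:70698949-70700616 on the plus strand. APP-PS1 brain held 253, 480.0, 587 and 454 CPM, against 615, 626 and 438 CPM in APP-PS1 blood. These 2 groups overlapped, as 587 CPM in brain exceeded the lowest blood library. WT brain held 463, 871, 391, 539 and 407 CPM, against 866, 1115, 914, 815 and 796 CPM in WT blood. Among WT brain libraries, only replicate 2 entered the range of WT blood. The log2 fold change of brain relative to blood was -0.30 in APP-PS1 mice (SE 0.34, adjusted p = 0.832), -0.79 in WT mice (SE 0.25, adjusted p = 0.173) and -0.55 over both strains (SE 0.21, adjusted p = 0.178), and none passed in edgeR. Without replicate 2 of WT brain, the WT value was -1.08 with an adjusted p = 0.0289.

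Jun, the founding member of the family and the substrate after which the JNK kinases are named, had a far lower level per exon length than Junb and Jund. It is a single exon at chr4:95049034-95052222 on the minus strand. APP-PS1 brain held 0, 93.7, 35.6 and 39.2 CPM, against 25.6, 173 and 97.3 CPM in APP-PS1 blood. WT brain held 81.7, 47.1, 58.6, 0 and 31.3 CPM, against 116, 150.3, 189.5, 63.9 and 88.4 CPM in WT blood. The libraries at 0 were replicate 1 of APP-PS1 brain and replicate 4 of WT brain, and the groups overlapped in both strains. The log2 fold change of brain relative to blood was -1.06 in APP-PS1 mice (SE 0.85, adjusted p = 0.739), -1.61 in WT mice (SE 0.64, adjusted p = 0.394) and -1.34 over both strains (SE 0.53, adjusted p = 0.201), none of which passed in edgeR.

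All 4 tested members had negative log2 fold changes of brain relative to blood in each strain. Jun passed the filter of about 117 CPM through blood libraries only, as its highest brain library held 93.7 CPM. Its negative sign is therefore not independent of the filter, and the medians and counts that follow include it. The median log2 fold change of the 4 was -1.06 in APP-PS1 mice and -0.88 in WT mice, where the medians over all 2366 tested genes were 0.03 and 0.02. In WT brain against WT blood, edgeR called 0 of the 4 members, DESeq2 and limma voom also called 0, and 3 of them had an unadjusted p under 0.05, where 0.761% of all tested genes were called and 7.27% had such a p. In APP-PS1 brain against APP-PS1 blood, 2 of the 4 had an unadjusted p under 0.05, where 10.7% of all tested genes did. Summed over all 10 members, which is mostly Junb, Jund and Ier2, the level lay between 1393 and 1989 CPM in APP-PS1 brain and between 2784 and 3943 CPM in APP-PS1 blood. In WT brain the same sum lay between 1043 and 1807 CPM, and in WT blood between 1998 and 2598 CPM.

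**Figure D2:**
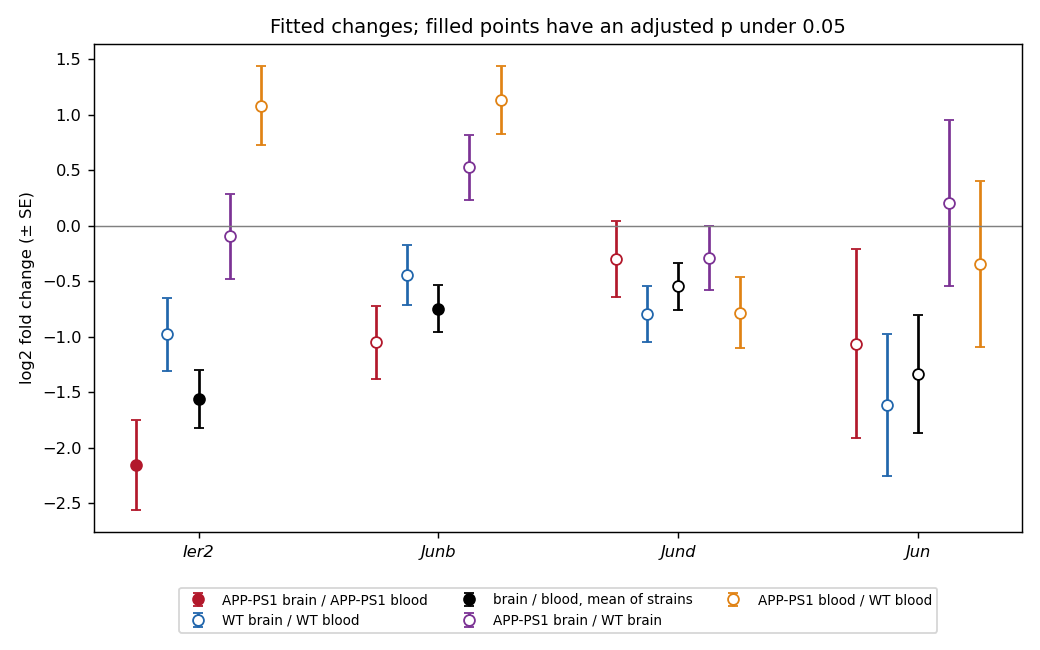
Fitted log2 fold changes with their SE (y axis) of the 4 tested members (x axis) in 5 comparisons, each named as the first group over the second. Filled points passed an adjusted p of 0.05 in edgeR, which were Ier2 in APP-PS1 brain relative to blood and Ier2 and Junb averaged over strains. Every value of brain relative to blood is below 0, and Jun passed the filter through blood libraries only.

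The remaining members were counted only in small numbers of reads. Fos, the partner with which Jun forms the classical AP-1 dimer, had 0, 2, 1 and 0 counts in APP-PS1 brain, against 1, 3 and 3 counts in APP-PS1 blood. In WT brain it had 0, 6, 0, 1 and 0 counts, against 8, 10, 5, 1 and 2 counts in WT blood. In CPM, the 4 APP-PS1 brain libraries were at 23.4 or lower and the 3 APP-PS1 blood libraries at 25.6 or higher, so Fos and Ier2 were the 2 of 10 members in which all brain libraries were below all blood libraries of that strain. Of all tested genes, 3.97% had that pattern and 5.07% its opposite. Between the WT tissues none of the 10 members was separated in this way, where 1.48% of tested genes were higher and 1.14% lower. Fos and the other members below the filter are not among the tested genes, so these shares apply to the tested members only. The margin for Fos was below 1 count in every APP-PS1 library, and in replicate 1 of APP-PS1 brain 1 count amounted to 36.2 CPM. In a fit with a lower filter of 5 CPM in at least 3 libraries, which kept 10167 genes, the log2 fold change of Fos over both strains was -1.96 (SE 0.82, adjusted p = 0.369, edgeR), in a contrast that called 0.541% of the genes in that fit.

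Fosl2, a Fos protein induced later than Fos itself, had 1 count in APP-PS1 brain, 4 in APP-PS1 blood, 14 in WT brain and 11 in WT blood, summed over the libraries of each group. Every WT brain library had at least 1 of these counts, whereas 3 of the 4 APP-PS1 brain libraries had none. Over those 4 libraries, a total of 3 counts would correspond to 10.1 CPM. Fosb had 1 count in each of APP-PS1 brain, APP-PS1 blood and WT brain, and 0 counts in WT blood, which allows a level of up to 5.04 CPM, taken as 3 counts over the group. In the lower filter, the log2 fold change of Fosl2 in APP-PS1 brain relative to WT brain was -2.84 (SE 1.41, adjusted p = 0.769, edgeR), and it did not pass.

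Batf, a partner of Jun proteins that lacks an activation domain of its own and takes part in effector CD8+ T cell differentiation, had 4 counts in APP-PS1 brain, 7 in APP-PS1 blood, 25 in WT brain and 37 in WT blood. Its pooled level was 13.5 CPM in APP-PS1 brain (95% Poisson interval 3.67 to 34.5) and 55.3 CPM in APP-PS1 blood (22.2 to 114). The pooled level was 47.9 CPM in WT brain (31.0 to 70.7) and 62.2 CPM in WT blood (43.8 to 85.7). Such intervals and the limits for counts of 0 cover counting error only. Over both strains the log2 fold change of brain relative to blood was -1.16 (SE 0.69, adjusted p = 0.542, edgeR with the lower filter).

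Ier5, a relative of Ier2, was the only one of the 10 members whose mean CPM was higher in brain than in blood in both strains. It averaged 37.7 ± 37.6 CPM in APP-PS1 brain (SD, n = 4) and 32.4 ± 56.2 CPM in APP-PS1 blood (SD, n = 3). It averaged 50.4 ± 34.6 CPM in WT brain and 27.8 ± 31.7 CPM in WT blood (SD, n = 5 each). The difference was within the spread, at a log2 ratio over both strains of 0.73 (SE 0.70, adjusted p = 0.731, edgeR with the lower filter). Nr4a1, an orphan nuclear receptor induced by antigen receptor signalling and often used as its reporter, was counted 1 time in APP-PS1 brain, 0 times in APP-PS1 blood, 1 time in WT brain and 2 times in WT blood. A count of 0 in APP-PS1 blood allows by the same rule a level of up to 23.7 CPM, so a difference between groups was not detectable for Nr4a1 or Fosb at this depth.

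**Figure D3:**
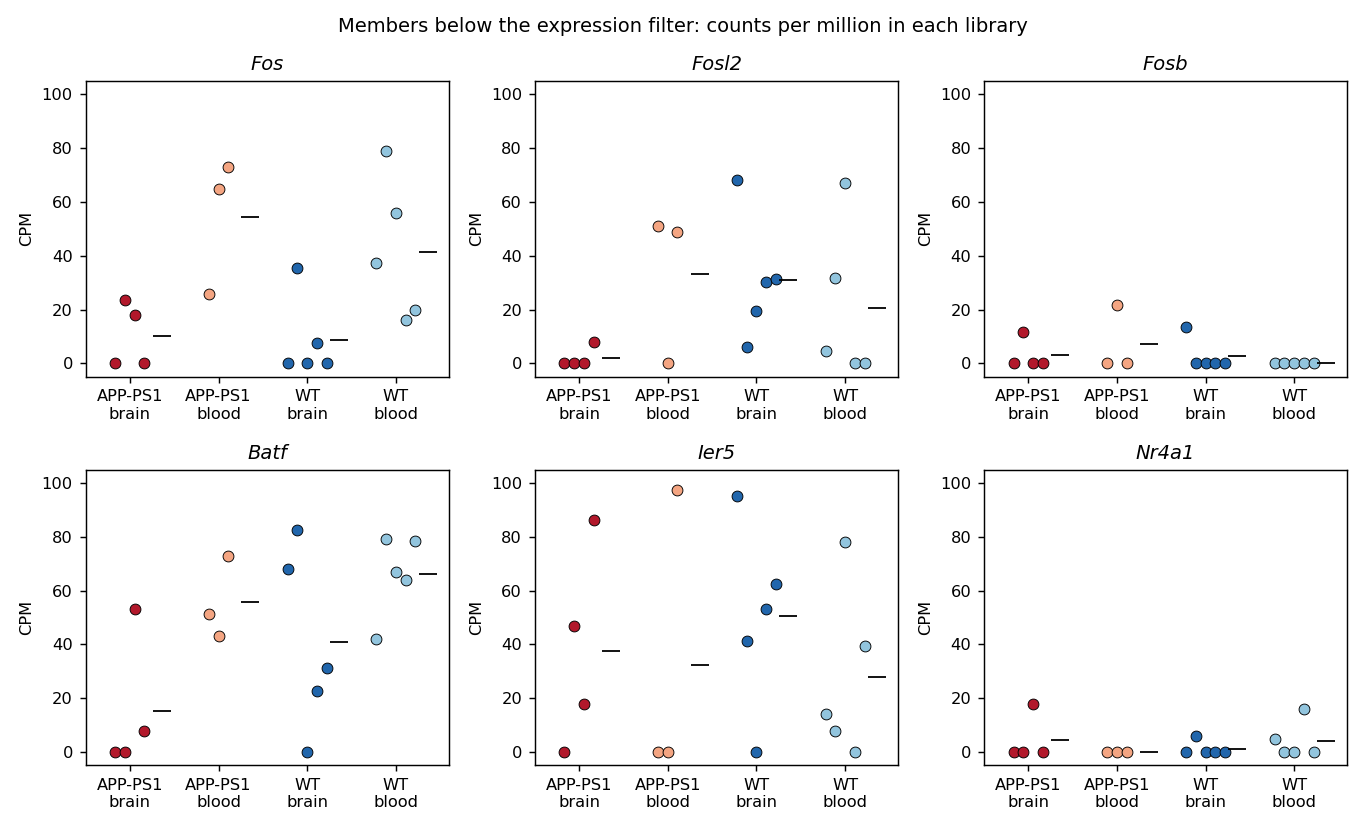
CPM of the 6 members below the filter in each library (y axis), by group (x axis). Points are libraries and the short black line is the group mean. Nr4a1 and Fosb are at 0 in most libraries, and the 3 APP-PS1 blood libraries of Fos lie at 25.6 CPM or higher.

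Between strains, 3 members were separated in blood and none in brain, and none passed the adjusted test in either tissue. In blood, Junb had 2407, 1144 and 1557 CPM in APP-PS1 mice, all above the 577 to 910.5 CPM of the 5 WT libraries. The log2 fold change was 1.13 (SE 0.30, unadjusted p = 0.000425, adjusted p = 0.168, edgeR), and its p ranked 6 of 2366. Its adjusted p lay between 0.0419 and 0.863 over the other settings, and the lowest value came from the fit on blood libraries alone. Ier2, at 712 to 768 CPM in APP-PS1 blood and 214 to 432 CPM in WT blood, gave a log2 ratio of 1.08 (SE 0.35, adjusted p = 0.371). Jund ran the other way, at 438 to 626 CPM in APP-PS1 blood and 796 to 1115 CPM in WT blood, at a log2 ratio of -0.78 (SE 0.32, adjusted p = 0.495). Jun overlapped between strains, at a log2 ratio of -0.35 (SE 0.75, adjusted p = 0.936). Thus 2 members were higher and 1 was lower in all APP-PS1 blood libraries than in all WT blood libraries, where 3.25% of tested genes were higher and 3.68% lower in that way. In this comparison edgeR called 0 of the 4 members and 0.0423% of all tested genes, and DESeq2 and limma voom called 0 members. In edgeR, 3 of the 4 had an unadjusted p under 0.05, where 8.03% of all tested genes did.

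In brain the log2 fold change of APP-PS1 relative to WT was -0.09 for Ier2 (SE 0.38), 0.53 for Junb (SE 0.29), -0.29 for Jund (SE 0.28) and 0.20 for Jun (SE 0.74), each with an adjusted p = 0.999. None of the 10 members was separated between the brain groups, where 0.845% of tested genes were higher and 0.719% lower in all APP-PS1 libraries than in all WT libraries. Those shares leave out the members below the filter. Here edgeR called 0 of the 4 members and 0% of all tested genes, DESeq2 and limma voom called 0 members, and 0 of the 4 had an unadjusted p under 0.05, where 4.14% of all tested genes did. The sign for Ier2 turned in the fits with sex as a term (0.01), with limma voom (0.06) and with female libraries alone (0.09).

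The balance between Junb and Jund, the 2 Jun subunits with enough counts to compare, was separated between the blood groups. This followed by construction, as Junb was higher and Jund lower in every APP-PS1 blood library than in every WT blood library. The share therefore restates those 2 separations and is not a further result. Junb took 86.0%, 51.8%, 55.4% and 60.0% of the summed Junb and Jund counts in the APP-PS1 brain libraries, against 79.7%, 64.6% and 78.0% in APP-PS1 blood. The shares were 64.2%, 40.6%, 62.96%, 38.8% and 45.1% in WT brain, against 42.2%, 34.1%, 47.8%, 52.8% and 44.1% in WT blood. The lowest share of APP-PS1 blood, 64.6% (exact 95% binomial interval 53.3% to 74.9%), was above the highest of WT blood, 52.8% (42.9% to 62.5%). The blood groups averaged 74.1% ± 8.25 in APP-PS1 mice (SD, n = 3) and 44.2% ± 6.93 in WT mice (SD, n = 5), and this separation did not rest on replicate 1 of APP-PS1 blood. In brain the means were 63.3% ± 15.5 in APP-PS1 mice (SD, n = 4) and 50.3% ± 12.3 in WT mice (SD, n = 5), and the groups overlapped. The share was chosen after the values of its 2 genes had been seen, so it is given without a test.

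**Figure D4:**
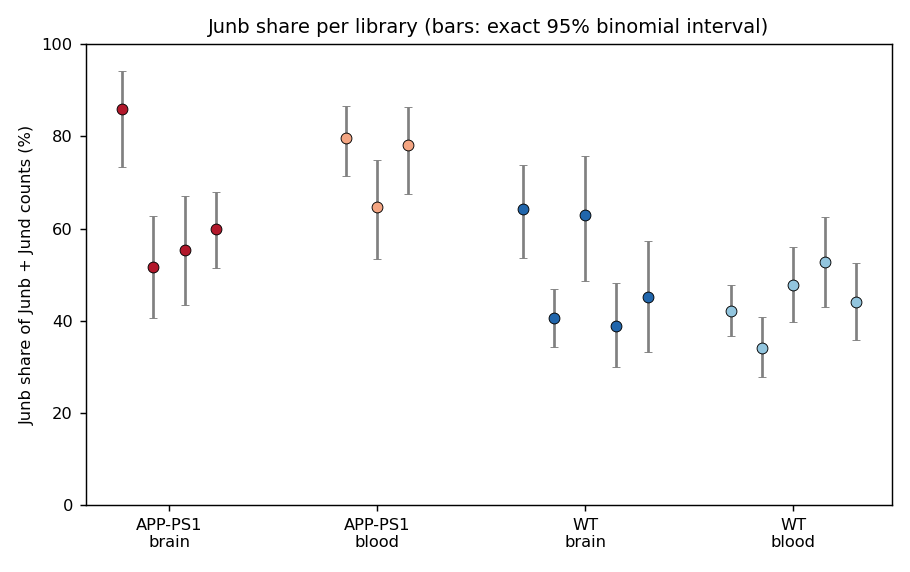
Junb counts as a percentage of Junb and Jund counts (y axis) in each library, by group (x axis). Points are libraries and bars are exact 95% binomial intervals, which cover counting error only. The 3 APP-PS1 blood libraries lie at 64.6% to 79.7% and the 5 WT blood libraries at 34.1% to 52.8%.

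Dividing CPM by the annotated exon length (CPM per kb) allowed the members to be ordered within a group, on the assumption that reads cover the exons evenly. In APP-PS1 brain the order was Junb at 378 ± 202, Jund at 266 ± 83.5 and Ier2 at 108 ± 42.6 CPM per kb (SD, n = 4), and in APP-PS1 blood it was Junb at 740 ± 280, Ier2 at 489 ± 19.1 and Jund at 335 ± 63.2 CPM per kb (SD, n = 3). In WT brain Jund led with 320 ± 118, followed by Junb with 240 ± 93.2 and Ier2 with 119 ± 58.2 CPM per kb (SD, n = 5), and in WT blood Jund led with 540 ± 76.9, followed by Junb with 312 ± 63.7 and Ier2 with 217 ± 57.1 CPM per kb (SD, n = 5). Neighbours in these orders lay within the sum of their SDs, except Jund against Junb in WT blood, Jund against Ier2 in APP-PS1 brain and Ier2 against Jund in APP-PS1 blood. The other 7 members were at or below 47.0 CPM per kb in every group. Junb shares its locus with Prdx2 on the opposite strand, which had 232 counts over all libraries. Jund likewise overlaps the antisense gene Gm11175, with 6 counts, and reads of such pairs could not be told apart because the strand setting is not known.

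All 7 markers of naive T cells were tested and had negative log2 fold changes of brain relative to blood in each strain. Of these, Klf2, Lef1 and Ccr7 were called lower in APP-PS1 brain than in APP-PS1 blood, and Klf2 and S1pr1 were among those called lower in WT brain than in WT blood. The calls on Klf2 and Ccr7 between tissues held on leaving out any 1 library, and with female libraries alone the APP-PS1 call on Ccr7 was lost (adjusted p = 0.379). Lef1 was lost without replicate 2 of APP-PS1 blood or replicate 4 of APP-PS1 brain (adjusted p up to 0.102), with no low count filter and with female libraries alone (up to 0.3). S1pr1 was lost without replicate 1 or 4 of WT brain (up to 0.0822) and with limma voom (0.0667). Klf2 and S1pr1 govern exit from lymphoid tissue, Ccr7 guides entry into lymph nodes, and Lef1 is a transcription factor of naive cells. Ccr7 and S1pr1 averaged at most 24.8 CPM in either brain group, so they passed the filter through blood libraries only. None of the 7 was at 0 in any group. Their summed level was 713 to 977 CPM in APP-PS1 brain, 3139 to 4532 CPM in APP-PS1 blood, 640 to 1062 CPM in WT brain and 1041 to 2987 CPM in WT blood. Ccr7 was also called higher in APP-PS1 blood than in WT blood (adjusted p = 0.0169), a call lost in 7 of 17 fits that left out 1 library, those without any 1 of the APP-PS1 blood libraries or without replicate 1, 2, 3 or 5 of WT blood, with adjusted p up to 0.268. It was also lost in 7 of 10 other settings, DESeq2 and sex as a term among them, with adjusted p up to 0.637. In that comparison 6 of the 7 naive markers had positive log2 fold changes, while those of Jund and Jun were negative. The APP-PS1 blood libraries had the highest naive sums and the highest Ier2 of all libraries. Replicate 5 of WT blood had the lowest naive sum of its group, 1041 CPM, below replicates 3 and 4 of WT brain at 1055 and 1062 CPM. Its Ier2 was the highest of its group at 432 CPM. The part of naive cells in the levels of Ier2 and Junb was not tested.

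**Figure D5:**
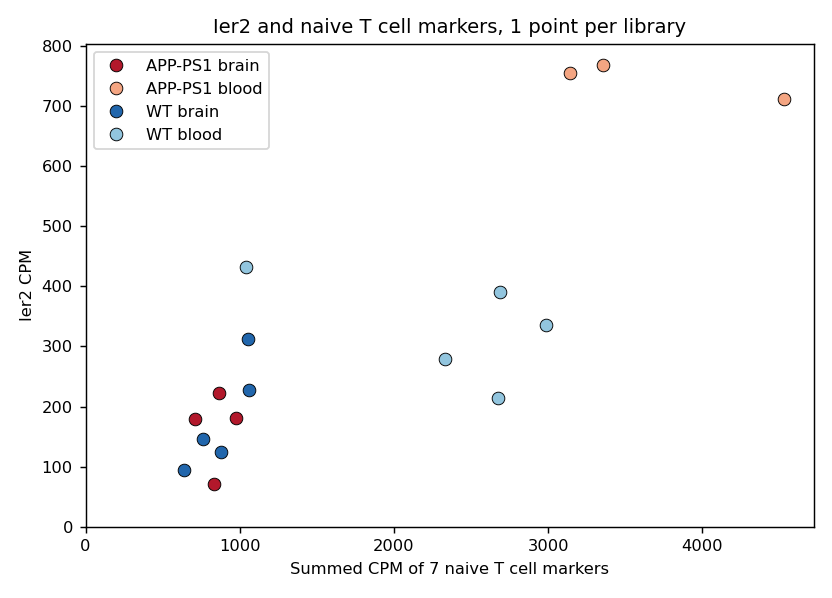
Ier2 CPM (y axis) against the summed CPM of 7 naive T cell markers (x axis), 1 point per library, coloured by group. The brain libraries and replicate 5 of WT blood lie at a sum of 1062 or lower, and the 3 APP-PS1 blood libraries lie at 3139 or higher with 712 to 768 CPM of Ier2.

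Likeness was measured as Pearson's r of log2 CPM over the 17 libraries, which share their tissue differences and their low depth. For Ier2 the 3 most alike genes were Dapl1 (r = 0.855), Klf2 (r = 0.805) and H2afz (r = 0.797). After each group's mean was removed, these correlations were 0.473, 0.235 and 0.464. For Junb they were Rpl4 (r = 0.766, and 0.606 within groups), Txndc15 (r = 0.752, and 0.654 within groups) and Ccr7 (r = 0.737, and 0.272 within groups). For Jund they included Tle3 (r = 0.819, and 0.749 within groups) and Atp2b1 (r = 0.819, and 0.735 within groups). Among the 4 tested members, Jun and Jund had r = 0.638 (0.383 within groups) and Junb and Ier2 had r = 0.538 (-0.102 within groups). Junb and Jund had r = -0.145 (-0.381 within groups). Pairs of these members thus ranged from -0.145 to 0.638, and the members below the filter were not included. Counting error lowers such correlations where counts are small, as for Jun, and its part was not tested.

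Other immediate early genes went both ways. Of 26 listed, 10 were tested, and in brain relative to blood 5 of them were positive and 5 negative in APP-PS1 mice, and 6 positive and 4 negative in WT mice. Their median log2 fold change was 0.14 in APP-PS1 mice and 0.35 in WT mice, and its difference from that of the members was not tested. Klf6, a zinc finger transcription factor, had log2 fold changes of -0.63 in APP-PS1 mice, -0.90 in WT mice and -0.77 over both strains (unadjusted p = 0.00749, adjusted p = 0.141, edgeR), and it did not pass. Dusp2, a nuclear phosphatase of MAP kinases, averaged 197 ± 57.5 CPM in WT brain and 38.2 ± 24.4 CPM in WT blood (SD, n = 5 each) and rose in WT brain by 2.13 in log2 units (SE 0.49, adjusted p = 0.0107, edgeR). That call was lost without replicate 5 of WT brain (adjusted p = 0.0519), with no low count filter and with limma voom (adjusted p up to 0.075). Dusp2 averaged 53.5 ± 30.7 CPM in APP-PS1 blood (SD, n = 3), so it passed the filter through brain libraries only. It was the only one of the 10 called in a single strain, and 0 were called in APP-PS1 mice, where 1 had an unadjusted p under 0.05. Over both strains, edgeR called Dusp2 (log2 fold change 1.76, adjusted p = 0.00913) and Rgs1 (1.44, adjusted p = 0.0261), a regulator of G protein signalling, higher in brain. Rgs1 averaged 81.0 ± 32.8 CPM in APP-PS1 blood (SD, n = 3) and 48.7 ± 28.1 CPM in WT blood (SD, n = 5). Both means were below the filter of about 117 CPM, so the direction of Rgs1 is not independent of the filter. The adjusted p for Dusp2 was 0.0533 without replicate 1 of APP-PS1 blood, and its call was also lost with limma voom and with female libraries alone (up to 0.154). Rgs1 was lost in 6 of 17 fits that left out 1 library, with adjusted p up to 0.11, and these libraries were replicates 1, 2 and 3 of APP-PS1 blood, replicates 2 and 4 of APP-PS1 brain and replicate 4 of WT brain. Rgs1 was also lost with no filter, with the 5 CPM filter, with limma voom and with female libraries alone, with adjusted p up to 0.412.

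Of 27 listed MAP kinase, SRF, CREB and NFAT genes, 25 were in the table and 7 were tested, and edgeR called 0 in either strain or over both. Their unadjusted p was under 0.05 for 0 in each strain and for 1 over both strains. The highest CPM among them were those of Crebbp, a CREB coactivator, Mapk3, the kinase ERK1, and Nfatc1, a partner of AP-1, at 217, 109.7 and 103 CPM over all libraries. Among 20 other AP-1 family members and partners, only Maf passed the filter, with log2 fold changes of brain relative to blood of -0.20 in APP-PS1 mice and -1.13 in WT mice, neither of which passed, and Fosl1, Batf2, Batf3 and Atf3 were at 0 in every library.

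Heat shock genes encode chaperones that cells induce under stress. Of 12 listed, 8 were tested, and edgeR called 0 in either strain, with 1 unadjusted p under 0.05 in APP-PS1 mice and 0 in WT mice. Summed over all 12, the level was 2915 to 3943 CPM in APP-PS1 brain, 3430.5 to 3906 CPM in APP-PS1 blood, 3102 to 4059 CPM in WT brain and 2444 to 3606 CPM in WT blood. Below the filter, Hspa1a had 0, 7, 6 and 28 counts in these groups, at mean CPM of 0, 57.1, 11.7 and 35.0. Hspa1b had 2, 3, 1 and 37 counts, at 4.88, 24.8, 3.91 and 47.4 CPM. Both means were thus lower in brain in each strain, untested. Hsph1 averaged 25.1, 130, 44.9 and 38.7 CPM, and Hspb1 was at 0 throughout. Of 15 genes linked to AP-1 in T cells, 5 were tested. Xcl1, a chemokine that attracts cross-presenting dendritic cells, averaged 419.8 ± 114 CPM in WT brain and 75.2 ± 57.2 CPM in WT blood (SD, n = 5 each), and rose in WT brain by 2.34 in log2 units (SE 0.40, adjusted p = 0.000121, edgeR). In APP-PS1 mice its log2 fold change was 2.11 (SE 0.61, adjusted p = 0.0816, edgeR). Xcl1 averaged 67.0 ± 72.8 CPM in APP-PS1 blood (SD, n = 3), so both of its blood means were below the filter. The direction of Xcl1 may therefore not be independent of the filter. Pdcd1 encodes an inhibitory receptor, PD-1. Its counts summed to 34 over APP-PS1 brain against 0 over APP-PS1 blood, and to 56 over WT brain against 23 over WT blood. It was called higher in brain over both strains (adjusted p = 0.00797, edgeR), and that call was lost without both libraries that stood apart, with female libraries alone and with limma voom, with adjusted p up to 0.162. Pdcd1 averaged 39.7 ± 19.4 CPM in WT blood (SD, n = 5), so it passed the filter of about 117 CPM through brain libraries only. Its direction is therefore not independent of the filter.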

How the data were processed

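The deposited values were whole-number counts per gene and library, which the authors had not normalised. The submitters' processing notes name the build GRCm38 and, with no role or order, HTSeq 0.11.2, Bowtie2 2.2.2, DESeq2 and FastQC. Not given in the sources used here: strand setting, annotation release, duplicate handling and how CD8+ cells were isolated. Each library was assigned to its group by its title. Over 29 pairs of libraries of 1 group, chi-square per degree of freedom lay between 2.59 and 5.69 and 0 pairs were identical, so every library was counted once.

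Counts were fitted with edgeR 4.0.16 in R 4.3.3, with a mean for each group over 17 libraries, TMM scaling, filterByExpr, the quasi-likelihood F test and robust dispersions, whose common biological coefficient of variation was 0.370. The Benjamini-Hochberg adjustment ran over 2366 genes per comparison, and genes under an adjusted p of 0.05 are termed called. The SE of a log2 fold change is its size over the square root of F. CPM refer to the total count of a library. Members below the filter were fitted with a filter of 5 CPM in at least 3 libraries, where edgeR kept 10167 genes. Coordinates and exon lengths came from GENCODE M21, which 48349 genes matched by identifier, and promoters from RefSeq.

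All 10 members were described. From each list, the genes called were named, otherwise up to 3 with the highest mean CPM; likeness was computed on TMM log2 CPM with a prior count of 2. Some genes that this rule or the marker lists give are not reported here. The members, lists and tests were chosen with earlier results of these data known. Genes named from marker lists, the Junb share and the fit without 2 libraries were chosen after their values were seen. Alternatives were RLE size factors, other filters, DESeq2 1.42.0, limma 3.58.1 with voom and quality weights, fits on the groups compared, sex as a term, female libraries, leaving out each library and thinning to 27646 counts. Fits were tested on simulated data. Intervals were computed with SciPy 1.17.1.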

Additional observations from a re-analysis of the deposited data

Results flagged for a closer look

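In 33 sets of values, those of the 10 members and of the Junb share in each group of 4 or 5 libraries, 7 had a library far from the others by Dixon's criterion, which chance meets in about 1 in 20 sets. In 5 of these 7 sets a single count stood among libraries at 0, where the criterion is met by construction, so that rate does not apply to sparse counts and the number of such sets is not compared with it. All 7 concerned members below the filter and brain libraries, and they rested on 1 to 6 counts each. Fos reached 35.3 CPM (6 counts) in replicate 2 of WT brain. Batf reached 53.3 CPM (3 counts) in replicate 3 of APP-PS1 brain. Fosl2 had its single count in APP-PS1 brain in replicate 4, at 7.83 CPM. Fosb had 1 count in replicate 2 of APP-PS1 brain, at 11.7 CPM, and 1 count in replicate 1 of WT brain, at 13.6 CPM. Nr4a1 had 1 count in replicate 3 of APP-PS1 brain, at 17.8 CPM, and 1 count in replicate 2 of WT brain, at 5.89 CPM. Ier2, Junb, Jund and Jun had no such library in the groups examined, which leave out APP-PS1 blood with its 3 libraries.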

How the results depend on the processing

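No paired analysis was possible because no label links a brain library with a blood library or carries a replicate number. Values under female libraries alone rest on 1 library in each APP-PS1 group, which is assumed to vary like the others. In APP-PS1 brain relative to APP-PS1 blood, Ier2 was called under every alternative except female libraries alone, which called 0 members and 4 genes in all; limma voom called 7 genes. Leaving out 1 library gave 1 to 2 members and 8 to 22 genes. In WT brain relative to WT blood, limma voom and thinning each called 10 genes, and leaving out 1 library gave 0 to 1 members. In APP-PS1 relative to WT blood, the fit on these groups alone called 1 member (Junb, log2 fold change 1.21, adjusted p = 0.0419) and 4 genes. There 1 gene was called in all. DESeq2, female libraries, sex as a term and the fit without the 2 libraries that stood apart each gave 0, thinning gave 2, limma voom gave 3, no filter gave 5, the 5 CPM filter gave 7 and leaving out 1 library gave 0 to 3. For the difference between strains in the tissue change, 1 gene was called in all, and DESeq2, female libraries, limma voom, thinning and the fit without those 2 libraries each gave 0, as against 0 to 1 on leaving out 1 library. Averaged over strains, where 62 genes were called, female libraries gave 18, thinning 25 and limma voom 38. There the 5 CPM filter, no filter, female libraries and thinning each called 1 member, Ier2, with adjusted p for Junb of 0.119, 0.1495, 0.371 and 0.155, and leaving out 1 library gave 1 to 2 members.

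Signs that turned all belonged to values that had not passed. In APP-PS1 relative to WT brain, Ier2 gave 0.088 with female libraries, 0.061 with limma voom, 0.0091 with sex as a term and -0.27 to 0.15 on leaving out 1 library. Jund there gave -0.41 to 0.011 on leaving out 1 library, and Jun gave -0.013 with female libraries and -0.40 to 0.57 on leaving out 1 library. Jund in APP-PS1 brain relative to blood was 0.15 with female libraries. Jun in APP-PS1 relative to WT blood was 0.075 without the 2 libraries and -1.14 to 0.12 on leaving out 1 library, and its difference between strains in the tissue change was -0.074 to 1.36 on leaving out 1 library. Fos over both strains had an adjusted p = 0.0447 with limma voom, against 0.369 in edgeR. The causes were not tested. Jun had no value with thinning, without replicate 2 or 3 of WT blood, or in most fits on the groups compared, as it then missed the filter. A fit on the groups compared could not be made for contrasts that use all 4 groups. Depth limits the 6 members below the filter, where a single count amounted to as much as 36.2 CPM.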
